A study of Mus musculus with 10 samples.

Results

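The Toll-like receptors of B cells, with their cofactors and adaptor, were followed as a group of 10 genes among the 22380 genes quantified in sorted germinal center B cells. The members were listed by name. They were the cell surface receptors Tlr1, Tlr2 and Tlr4, the endosomal receptors Tlr3, Tlr7 and Tlr9, the receptor-like protein RP105 (Cd180) with its partner MD-1 (Ly86), the chaperone Unc93b1, and the adaptor Myd88. All 10 had a single matching gene identifier, and all 10 passed the filter on low counts.

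RNA-sequencing was performed on NP-binding germinal center B cells (GL7+IgD-) sorted 2 weeks after mice received NP-OVA in alhydrogel, where NP is a small hapten coupled to ovalbumin. ZBTB38 WT mice were Zbtb38fl/fl with no Cre (n = 2), ZBTB38 HET mice were Zbtb38fl/+ x Vav-Cre (n = 2) and ZBTB38 KO mice were Zbtb38fl/fl x Vav-Cre (n = 6). All were labelled C57Bl6/N, and all carried at least 1 floxed allele from a single founder made in C57Bl6/J zygotes. Vav-Cre acts in hematopoietic cells generally, so the deletion was not limited to B cells, and WT differed from HET and KO in Cre as well as in Zbtb38. The ages of the mice were not given in the labels. The study counts its replicates as mice.

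Toll-like receptors recognize conserved microbial products. TLR1, TLR2 and TLR4 act at the cell surface on lipoproteins and lipopolysaccharide, whereas TLR3, TLR7 and TLR9 act in endosomes on double-stranded RNA, single-stranded RNA and unmethylated CpG DNA. UNC93B1 carries the endosomal receptors out of the endoplasmic reticulum. Most of the family signals through MYD88, whereas TLR3 uses the adaptor TRIF. RP105 and MD-1 resemble TLR4 and its partner MD-2, but RP105 lacks the signaling domain. In B cells, signals through TLR7 and TLR9 add to those of the antigen receptor and are known for their part in antibody responses to nucleic acids.

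The libraries held between 26612431 and 41059082 estimated counts. Zbtb38 itself was at 152 and 164 CPM (counts scaled to a fixed library size) in the WT libraries. It was at 106 and 117 in HET and between 18.5 and 50.1 in KO. The log2 fold change of WT over KO was 2.31 (SE 0.274, edgeR adjusted p = 0.0734). In TPM (a length-corrected transcript level), KO ranged from 17.5 to 46.1, and both HET libraries were at 49.6. Only the terminal exon, which holds the coding sequence, is floxed, whereas these values count the whole gene. The study reports complete loss of transcripts from the floxed exon in KO. The germinal center B cell markers Bcl6, Fas and S1pr2 were at 1 TPM or more in every library. KO replicate 6 stood apart, with a median correlation with the other libraries of 0.954 against 0.971 to 0.983, and is named below wherever it decides a value. Transcripts of other cells were present too: the summed level of 12 myeloid markers was 508 to 594 TPM in WT, 81.0 to 94.0 in HET and 81.8 to 865 in KO. In bulk RNA of sorted cells, fewer cells of a type and less RNA per cell cannot be told apart.

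The level of the 10 genes differed over more than 2 orders of magnitude, and the chaperone and MD-1 stood highest. In mean TPM over the 10 libraries the order was Unc93b1 (483 ± 62.1, SD), Ly86 (333 ± 45.5), Cd180 (81.5 ± 18.5), Myd88 (63.4 ± 6.44), Tlr1 (38.0 ± 7.89), Tlr4 (7.83 ± 1.81), Tlr7 (4.36 ± 2.85), Tlr2 (2.35 ± 1.43), Tlr3 (1.88 ± 1.19) and Tlr9 (1.60 ± 1.52). Of the genes tested, 97.7% had a lower level than Unc93b1, 81.8% a lower level than Myd88 and 27.4% a lower level than Tlr9. The libraries separated the order into 4 steps with no overlap: Unc93b1 with Ly86, then Cd180 with Myd88, then Tlr1, then the remaining 5 receptors. Unc93b1 exceeded Ly86 in 9 of 10 libraries, with means further apart than either SD, although their ranges overlapped. Cd180 exceeded Myd88 in 8 libraries, Tlr2 exceeded Tlr3 in 6 and Tlr3 exceeded Tlr9 in 7, and these neighbours did not differ beyond their spread. Tlr4 exceeded Tlr7 in 9 libraries and Tlr7 exceeded Tlr2 in 9, but their ranges overlapped.

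**Figure D1:**
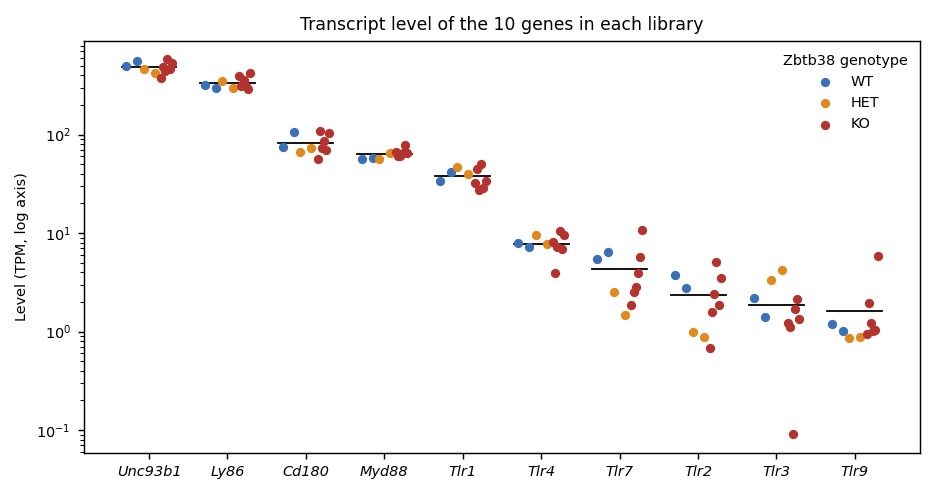
Level of each gene in TPM on a log axis, 1 point per library colored by Zbtb38 genotype, with a line at the mean of the 10 libraries. Unc93b1 and Ly86 lie between 288 and 578 TPM in every library, and the lowest 5 receptors lie at 10.8 TPM or less.

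Whether Zbtb38 genotype changed these genes was asked in 4 comparisons. In each, fold changes are the first-named group over the second. The comparisons share libraries: the same KO libraries enter the first 3, and the WT and HET libraries recur, so they are not independent of each other. None of the 10 genes was called at an edgeR adjusted p under 0.1 in any comparison. In WT against KO, 0.00704% of the 14203 genes tested were called, which was Zbtb38 alone. In WT plus HET against KO, 0.00749% of 13347 genes were called, again Zbtb38 alone. In HET against KO and in WT against HET, 0.00697% of 14354 genes were called, and the gene was Hnrnpll in each. DESeq2, run as an alternative, called 10, 25, 505 and 168 genes in the 4 comparisons, and among the members it called only Tlr7, in HET against KO and in WT against HET.

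At an unadjusted edgeR p under 0.05, 1 of the 10 members differed between WT and KO (Tlr7, higher in WT), against 2.19% of all genes tested. In WT plus HET against KO 1 of 10 differed (Myd88, lower in controls), against 6.30% of all genes. HET against KO gave 2 of 10 (Tlr7 and Tlr2, lower in HET), against 10.2%, and WT against HET gave the same 2 genes, higher in WT, against 6.42%. The WT and KO libraries did not overlap for 2 of the 10, with Tlr7 higher and Myd88 lower in WT, against 6.62% of all genes. The 4 controls and the KO libraries overlapped for all 10, against 1.56% of genes that did not overlap. The median log2 fold change of the members in the 4 comparisons was -0.03, -0.14, -0.24 and 0.07, beside -0.01, -0.02, -0.07 and 0.01 for all genes tested.

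**Figure D2:**
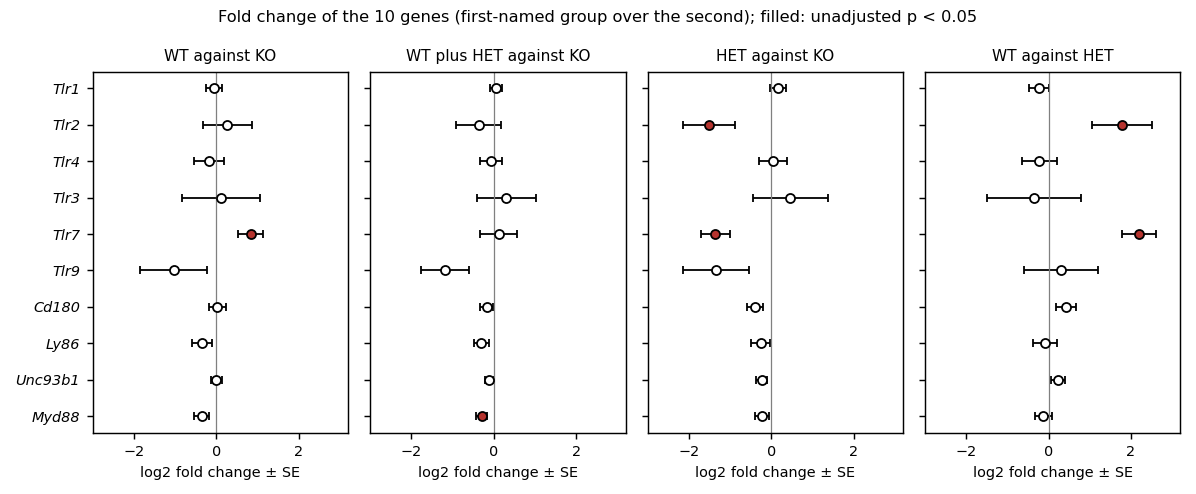
Log2 fold change with its SE for each gene in each comparison, from edgeR, with filled points at an unadjusted p under 0.05. Tlr7 is 0.83 for WT against KO, -1.36 for HET against KO and 2.19 for WT against HET, while Tlr1, Cd180, Ly86 and Unc93b1 are no larger in size than the 0.42 of Cd180 for WT against HET in any panel.

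Tlr7, the receptor for single-stranded RNA, had the largest fold change of the members between WT and HET, though it did not pass the adjusted threshold in edgeR in any comparison. It lies on chromosome X (chrX:167304929-167330558, minus strand). In WT it was at 14.3 and 16.3 CPM, and in HET at 2.90 and 3.76 CPM. In KO the lowest library was at 6.26 CPM, the median 8.54 and the highest, replicate 6, at 11.7. The 3 genotypes did not overlap, and their order was WT, KO, HET, so that the KO libraries lay between the genotypes with 2 and with 1 functional allele. WT and KO alone did not overlap for 6.62% of all genes tested. The share of genes with all 3 groups apart was not counted, and WT and HET hold only 2 libraries each. Group means were 15.3 ± 1.4 CPM (SD, n = 2), 8.52 ± 2.1 CPM (SD, n = 6) and 3.33 ± 0.607 CPM (SD, n = 2). These values rest on 91 to 590 estimated counts per library.

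For WT over KO the log2 fold change of Tlr7 was 0.83 (SE 0.308, edgeR unadjusted p = 0.0211, adjusted p = 0.999). For HET over KO it was -1.36 (SE 0.351, edgeR unadjusted p = 0.00238, adjusted p = 0.314). For WT over HET it was 2.19 (SE 0.411, edgeR unadjusted p = 0.000198, adjusted p = 0.404). The DESeq2 adjusted p was 0.999 for WT against KO, 0.00315 for HET against KO and 1.81e-05 for WT against HET. Pooling WT with HET, as in WT plus HET against KO, joined the highest and the lowest libraries, and the log2 fold change was 0.12 (SE 0.453, edgeR adjusted p = 0.968), with a sign that changed under 7 of 21 alternatives.

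The annotated transcripts of Tlr7 showed where reads and length-corrected levels parted. Of its 5 transcripts, 3 hold the whole coding sequence of 3153 bases. The other 2 are short, of 384 and 366 bases, so that few reads on them give a high TPM. In KO replicate 6, 68.0% of the gene's 10.8 TPM came from the transcript of 384 bases. It held 37.7 of the library's 393 estimated Tlr7 counts. In the whole-coding transcripts alone, Tlr7 was at 5.51 and 6.41 TPM in WT, 1.03 and 1.46 in HET and 1.87 to 3.93 in KO. On that measure too the genotypes did not overlap, in the order WT, KO, HET. With all transcripts they did overlap: Tlr7 was at 5.51 and 6.41 TPM in WT, 2.53 and 1.46 in HET and 1.87 to 10.8 in KO. With counts scaled by transcript length, which keep the short transcripts, the log2 fold change of WT over KO was 0.21 (edgeR unadjusted p = 0.736).

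Other features of the libraries differed between WT and HET as Tlr7 did. The summed level of 4 Y-linked genes was 110 to 156 TPM in WT, 0.487 to 0.640 in HET, and in KO 88.8 to 145 in replicates 1, 2 and 5 and 0.917 to 1.77 in replicates 3, 4 and 6. WT and HET therefore differed in both genotype and the level of Y-linked genes, and for an X-linked gene the 2 cannot be told apart between these groups alone. Within KO, Tlr7 was at 6.26 to 9.03 CPM in the replicates with Y-linked reads and at 8.06 to 11.7 in the others. A further fit took the mean log2(CPM + 1) of the 4 Y-linked genes as a covariate. In it the log2 fold change was 1.08 for WT over KO (edgeR adjusted p = 1.0), -1.58 for HET over KO (edgeR adjusted p = 0.223) and 2.67 for WT over HET (edgeR adjusted p = 0.174). Myeloid markers also differed between WT and HET, at 508 to 594 TPM and 81.0 to 94.0 TPM, and none of the 12 was at 0 in every library. Within KO, replicates 1 and 2 had sums of 81.8 and 91.2 TPM, with Tlr7 at 6.26 and 6.36 CPM, above its level in both HET libraries. Replicate 6, with the highest Tlr7 of its group, had 177 TPM against 865 in replicate 4. Most of the sum in replicate 4 was the lysozyme gene Lyz2, at 694 TPM against 36.3 in replicate 6. Of the same list, Csf1r and Cd14 were higher in replicate 6 (69.8 and 6.72 CPM) than in replicate 4 (59.4 and 4.01). Itgam and Adgre1 were lower in replicate 6 (5.14 and 11.8 CPM) than in replicate 4 (43.5 and 18.3). Naive B cell markers summed to 1120 to 1270 TPM in WT and 765 to 830 in HET. In KO their sums were highest in replicates 4 and 6 (1340 and 1280 TPM), which also had the highest Tlr7, and lowest in replicate 1 (640 TPM), which had the lowest. The other KO libraries did not keep that order: replicate 5 had 712 TPM with Tlr7 at 9.03 CPM, and replicate 2 had 1060 TPM with Tlr7 at 6.36 CPM. Both HET sums lay above those of KO replicates 1 and 5, although HET had the lowest Tlr7. T cell markers summed to 395 to 430 TPM in WT, 227 to 248 in HET and 267 to 353 in KO. Most of that sum came from Lck and Cd2 (means of 113 and 139 TPM), while Cd3e and Trac had means of 8.06 and 22.2 TPM. Trac, like Tlr7, did not overlap between the genotypes in CPM, in the order WT, KO, HET. Its log2 fold change was 1.14 for WT over KO, -1.46 for HET over KO and 2.60 for WT over HET. The edgeR adjusted p of Trac was 0.999, 0.372 and 0.487. Of the 10 T cell markers, 9 had a positive log2 fold change for WT over HET. Lck hardly differed, with means of 120, 121 and 109 TPM in WT, HET and KO. The 7 plasmacytoid dendritic cell markers summed to 188 to 189 TPM in WT, 142 to 163 in HET and 163 to 214 in KO. Most of this sum came from Tcf4 and Bst2 (means of 139 and 40.9 TPM). The defining gene of these cells, Siglech, was under 1 TPM in every library, as were Klk1 and Runx2. The part of these other transcripts in the Tlr7 values was not tested.

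**Figure D3:**
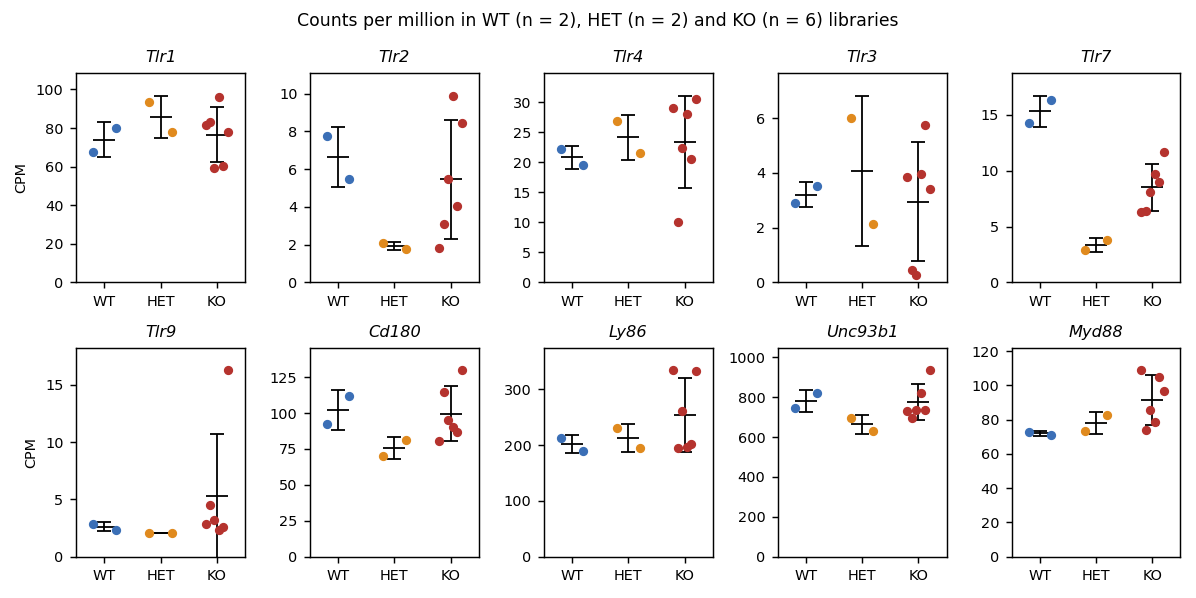
CPM of each gene in every library by Zbtb38 genotype, with the mean and SD of each group, on axes that start at 0. The Tlr7 groups do not overlap, and a single KO library at 16.3 CPM sets the spread of Tlr9.

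Tlr9, the receptor for CpG DNA, was the least abundant member by TPM and the one most dependent on a single library. It is a gene of chromosome 9 (chr9:106222598-106226883, plus strand), 9.47 Mb from Zbtb38. The 250 bases before its RefSeq start (GRCm38.p6, chr9:106222348-106222597, plus strand) are shown because ZBTB38 is known as a methyl-CpG binding protein. Capitals mark every CG, the octamer motif ATGCAAAT and the E-box CACCTG, each searched on both strands.

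Tlr9: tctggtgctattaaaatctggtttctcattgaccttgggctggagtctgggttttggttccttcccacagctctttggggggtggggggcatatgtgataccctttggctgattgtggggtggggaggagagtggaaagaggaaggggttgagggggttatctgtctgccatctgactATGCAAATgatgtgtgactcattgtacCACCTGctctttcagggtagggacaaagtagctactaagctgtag

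This window holds no CG, as do 7.86% of the 32841 RefSeq windows of this length. It holds ATGCAAAT once and CACCTG once. The octamer was found in 1.60% of all windows and the E-box in 17.22%. A search for GAGGAAGT, which 2.44% of windows hold, gave no match in it. The motifs do not overlap.

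In WT, Tlr9 was at 2.89 and 2.35 CPM, and in HET at 2.10 and 2.09 CPM. In KO the lowest value was 2.34 CPM and the median 3.06, while replicate 6 reached 16.3. Apart from that library the genotypes lay close together, and WT overlapped KO, while both HET libraries were the lowest of all 10. Between WT plus HET and KO the log2 fold change was -1.18 (SE 0.585, edgeR adjusted p = 0.744), and -0.40 without KO replicate 6. For WT over KO it was -1.03 (SE 0.812, edgeR adjusted p = 0.999), and -0.26 without that library. The same library had the highest CPM of Cd180 and Unc93b1 among the 10, the lowest summed level of light zone markers (737 TPM) and of dark zone markers (992 TPM), and 1280 TPM of naive B cell markers, which ranged from 640 to 1340 in KO.

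TLR3, the receptor for double-stranded RNA, was near the limit of the counts. The gene (chr8:45395665-45411080, minus strand) had between 8 and 189 estimated counts per library. In WT it was at 2.89 and 3.53 CPM, in HET at 6.02 and 2.13, and in KO between 0.26 and 5.76, so the groups overlapped in CPM. The log2 fold change was 0.11 (SE 0.956) for WT over KO and 0.47 (SE 0.914) for HET over KO, and the edgeR adjusted p was 0.999 and 0.886. Its counts were divided among 7 transcripts, and the 3 that hold the whole coding sequence made up between 11.9% and 87.3% of its TPM. In TPM, which depends on that division, the HET libraries (3.35 and 4.26) lay above both WT libraries (2.20 and 1.41) and all KO libraries (0.0913 to 2.16). In HET replicate 2, 3.66 of the 4.26 TPM came from a transcript of 382 bases with 11.7 estimated counts. In the whole-coding transcripts alone the groups overlapped. On that measure HET was at 1.77 and 0.606 TPM, WT at 0.914 and 1.09 and KO at 0.0711 to 1.89. limma on log2(TPM + 1), which took all transcripts, gave 1.15 for HET over KO (unadjusted p = 0.00861, adjusted p = 0.638). For WT plus HET over KO it gave 0.76 (unadjusted p = 0.0295, adjusted p = 0.686).

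Tlr2, a surface receptor for lipoproteins, was lowest in HET. This single-transcript gene lies at chr3:83836272-83841767 on the minus strand. In WT it was at 7.77 and 5.50 CPM and in HET at 2.07 and 1.77 CPM. KO ranged from 1.81 to 9.89 CPM with a median of 4.77 and overlapped both. The log2 fold change was -1.50 for HET over KO (SE 0.637, edgeR unadjusted p = 0.0363, adjusted p = 0.462) and 1.77 for WT over HET (SE 0.729, edgeR unadjusted p = 0.0319, adjusted p = 0.755). For WT over KO it was 0.27 (SE 0.588, edgeR adjusted p = 0.999), and 1.17 with the Y-linked covariate (edgeR unadjusted p = 0.0471, adjusted p = 1.0). Myeloid transcripts followed Tlr2 in some libraries and not in others. KO replicate 4 had the highest Tlr2 (9.89 CPM) and the highest myeloid sum (865 TPM), and KO replicate 1 had the lowest Tlr2 of its group (1.81 CPM) and the lowest myeloid sum of its group (81.8 TPM). KO replicate 6, with 8.43 CPM of Tlr2, had a myeloid sum of 177 TPM. Its Csf1r and Cd14 were above those of KO replicate 4, while its Lyz2, Itgam and Adgre1 were below. Lyz2, a lysozyme of macrophages and neutrophils, was at 298 and 349 CPM in WT, 22.6 and 35.6 in HET and 20.7 to 528 in KO. Naive B cell markers summed to 1120 to 1270 TPM in WT and 765 to 830 in HET. In KO their sums were highest in replicates 4 and 6 (1340 and 1280 TPM) and lowest in replicate 1 (640 TPM). KO replicate 2 left that order, with 1060 TPM and Tlr2 at 3.12 CPM. The part of the myeloid and naive B cell transcripts in the Tlr2 values was not tested.

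Tlr1, which pairs with TLR2, and Tlr4, the receptor for lipopolysaccharide, did not pass the test in any comparison. Tlr1 (chr5:64924679-64933563, minus strand) was at 67.6 and 80.3 CPM in WT, 93.6 and 78.1 in HET and 59.2 to 96.0 in KO. Its log2 fold change for WT over KO was -0.06 (SE 0.202), and its largest was -0.23 (SE 0.237) for WT over HET. Tlr1 shares much of its sequence with its neighbor Tlr6 (chr5:64952031-64960097), so reads could be divided between them. Tlr6 was at 16.0 to 29.5 CPM, with a log2 fold change of -0.09 (SE 0.265) for WT over KO. Tlr4 (chr4:66827584-66930284, plus strand) was at 22.2 and 19.5 CPM in WT, 26.8 and 21.5 in HET and 9.98 to 30.5 in KO. Its log2 fold change for WT over KO was -0.18 (SE 0.361). The lowest Tlr4 value belonged to KO replicate 2, and the other 5 KO libraries lay at 20.5 CPM or above, higher than WT replicate 2.

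MYD88, the adaptor that recruits IRAK kinases to most Toll-like receptors, had a lower mean in the controls, a difference that did not pass the adjusted threshold. The Myd88 gene (chr9:119335934-119341411, minus strand) lies 22.58 Mb from Zbtb38. In WT it was at 72.9 and 71.0 CPM and in HET at 73.3 and 82.5 CPM. In KO the lowest library was at 73.7 CPM, the median was 91.3 and the highest was 109. The WT libraries lay below all KO libraries, if narrowly, and HET overlapped KO. The log2 fold change was -0.30 for WT plus HET over KO (SE 0.129, edgeR unadjusted p = 0.0405, adjusted p = 0.744), -0.36 for WT over KO (SE 0.182, edgeR adjusted p = 0.999) and -0.23 for HET over KO (SE 0.171, edgeR adjusted p = 0.650). In TPM the means were 57.4 ± 0.461 (SD, n = 2), 61.3 ± 6.00 (SD, n = 2) and 66.1 ± 6.5 (SD, n = 6) in WT, HET and KO. limma on log2(TPM + 1) gave -0.15 for WT plus HET over KO (unadjusted p = 0.151). At least 99.0% of its TPM came from the transcript with the whole coding sequence of 891 bases.

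UNC93B1 is required for the endosomal receptors to leave the endoplasmic reticulum. Its gene (chr19:3935186-3949340, plus strand) was at 743 and 821 CPM in WT, 697 and 629 in HET and 697 to 936 in KO. The log2 fold change was 0.00 (SE 0.141) for WT over KO and -0.11 (SE 0.111) for WT plus HET over KO, the smallest SEs among the members in those comparisons, with edgeR adjusted p of 1.0 and 0.827. HET was the lowest group, with a log2 fold change of -0.23 over KO (SE 0.134, edgeR adjusted p = 0.579). The transcript with the whole coding sequence of 1860 bases made up at least 95.7% of its TPM. The chaperone thus stood at 379 TPM or more in every library. Its clients Tlr3, Tlr7 and Tlr9 together summed to between 4.02 TPM (KO replicate 1) and 18.0 TPM (KO replicate 6). Of the latter, 7.38 TPM came from the short Tlr7 transcript of 384 bases, on 37.7 estimated counts.

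RP105 and MD-1 form a complex on the B cell surface, and MD-1 is needed for RP105 to reach it. Both genes lie on chromosome 13, Ly86 at chr13:37345208-37419036 and Cd180 at chr13:102693558-102739629, both on the plus strand. For contrast with Tlr9, the 250 bases before the downstream of the 2 RefSeq starts of Cd180 (GRCm38.p6, chr13:102693308-102693557, plus strand) are given with the same marking.

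Cd180: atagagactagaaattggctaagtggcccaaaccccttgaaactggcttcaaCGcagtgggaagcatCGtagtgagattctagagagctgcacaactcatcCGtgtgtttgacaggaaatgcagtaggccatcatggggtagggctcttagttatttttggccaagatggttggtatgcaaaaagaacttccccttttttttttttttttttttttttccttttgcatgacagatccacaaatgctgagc

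This window holds 3 CG, where the median of all windows is 6, and none of the other motifs. Of the 10 members, 7 had a RefSeq promoter window, and the 2 shown are those genes whose windows overlap no annotated exon.

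Ly86 was at 213 and 190 CPM in WT, 231 and 195 in HET and 195 to 335 in KO, so that the groups overlapped. Its log2 fold change was -0.35 (SE 0.247) for WT over KO and -0.30 (SE 0.178) for WT plus HET over KO, and the edgeR adjusted p was 0.999 and 0.744. The 2 highest values were 335 in KO replicate 1 and 334 in KO replicate 6. Cd180 was at 92.5 and 112 CPM in WT, 70.2 and 81.1 in HET and 80.7 to 130 in KO. Its log2 fold change was 0.03 (SE 0.197) for WT over KO, -0.40 (SE 0.194) for HET over KO and 0.42 (SE 0.232) for WT over HET, and the edgeR adjusted p was 0.999, 0.514 and 0.808.

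Most of the Cd180 signal in TPM did not come from the transcript that encodes the whole protein. That transcript (ENSMUST00000022124.9, 1986 coding bases) made up between 25.5% and 49.2% of the gene's TPM. By estimated counts, in which a longer transcript draws more reads, it held between 40.9% and 70.7% of the gene. Its level was 36.5 and 34.5 TPM in WT, 23.5 and 32.5 in HET and 24.5 to 39.7 in KO. The rest fell on 4 transcripts with 126 to 318 annotated coding bases, the largest being ENSMUST00000171267.1 at 10.9 to 54.8 TPM. In KO replicate 2 this transcript held 50.5% of the gene's TPM. The mean share of the whole-coding transcript was 40.9% ± 11.6 (SD, n = 2) in WT, 40.3% ± 6.57 (SD, n = 2) in HET and 36.9% ± 6.87 (SD, n = 6) in KO, which differed by less than the spread between libraries. These transcripts share exons, and Salmon divides the reads between them by estimation. Measured against whole-coding Cd180, Ly86 was 8.67 and 8.55 times as abundant in WT, 14.8 and 9.12 times in HET and 9.83 to 16.0 times in KO. These ratios of TPM were not tested.

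**Figure D4:**
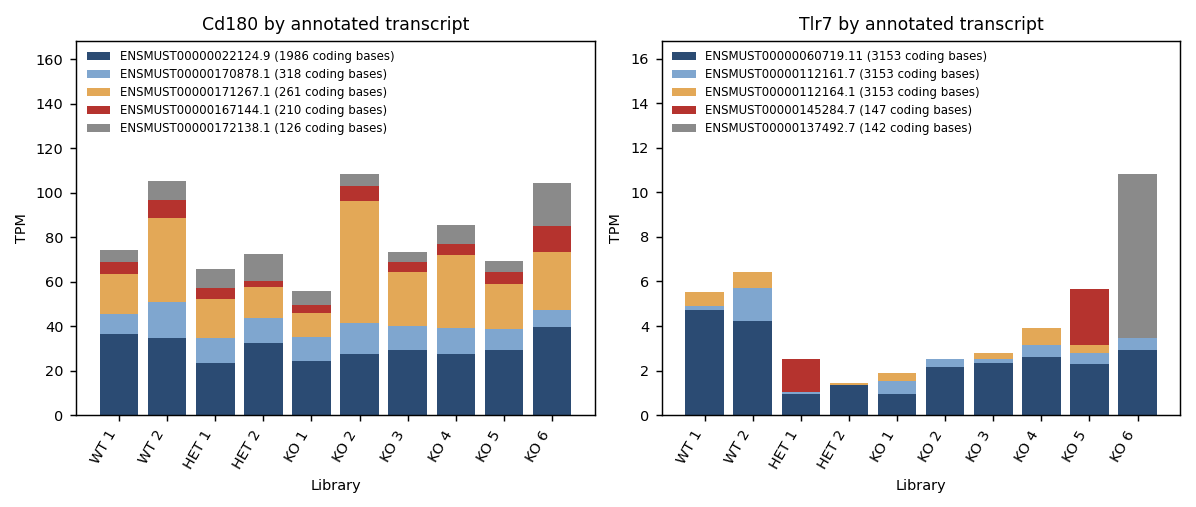
TPM of Cd180 and Tlr7 in each library, stacked by annotated transcript, with the number of annotated coding bases of each. The whole-coding Cd180 transcript stays between 23.5 and 39.7 TPM, and a short transcript carries most of the Tlr7 TPM of KO replicate 6.

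The other genes of the pathway, 48 in 7 lists, gave no call at an adjusted p under 0.1 in any comparison. Of these, 45 were tested in WT against KO and none had an unadjusted edgeR p under 0.05, against 2.19% of all genes. Their median log2 fold change was 0.03. In WT plus HET against KO 4 of 45 were higher and 1 was lower at an unadjusted p under 0.05, against 6.30% of all genes, and none passed an adjusted p of 0.1. The higher ones were Peli1, a ubiquitin ligase that acts with IRAK kinases (0.26, SE 0.109), Tab3, a partner of the kinase TAK1 (0.77, SE 0.346), and the negative regulators Tnfaip3 (0.52, SE 0.208) and Tollip (0.28, SE 0.125), all as log2 fold changes with an edgeR adjusted p of 0.744. Ly96, which encodes MD-2, was the lower one (-0.62, SE 0.282, edgeR adjusted p = 0.744). Tnfaip3 was at 62.8 and 64.7 CPM in WT, 64.8 and 61.7 in HET and 27.0 to 62.9 in KO, and Ly96 at 20.2 and 12.5 CPM in WT, 15.3 and 16.9 in HET and 16.9 to 40.9 in KO. Both genes overlapped between the controls and KO.

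Among 6 further Toll-like receptors, Tlr6 was the most abundant at a mean of 12.3 TPM. Tlr5, the flagellin receptor, had no counts in any library, which allows up to 3 counts in each, and Tlr11 had 199 estimated counts in KO replicate 6 and 0 in the other 9 libraries. The cofactor list was led by Hmgb1 (1970 TPM) and the folding and trafficking list by Hsp90b1 (362 TPM), which encodes the chaperone gp96 that folds Toll-like receptors. Among adaptors Pik3ap1 (141 TPM), among the kinases Irak1 (88.4 TPM), among interferon regulatory factors Irf8 (397 TPM) and among negative regulators Cyld (47.1 TPM) had the highest mean. None of these 7 leading genes had an edgeR adjusted p under 0.1 in any comparison.

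In HET against KO 8 of 46 pathway genes had an unadjusted p under 0.05, of which 2 were higher and 6 lower in HET, against 10.2% of all genes. The higher ones were Cyld and Traf3, and the lower ones were Cd36, Ctsl, Tlr13, Cd14, a cofactor of TLR4 that monocytes and macrophages carry, Irak3, an inhibitory kinase of such cells, and the endosomal protease Ctsb. WT against HET gave 3 of 46, against 6.42% of all genes, a share near this background. All 3, Cd14, Ctsb and Irak3, were higher in WT. Cd14 was at 3.11 and 3.22 CPM in WT, 0.191 and 0.325 in HET and 0.431 to 6.72 in KO, and it is itself among the 12 myeloid markers. No pathway gene passed an adjusted p of 0.1.

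Correlations between members from library to library were mixed in sign. Over the 10 libraries, 15 pairs among the 6 members with a mean of at least 10 CPM had correlations of log2(CPM + 1) between -0.346 (Tlr1 with Myd88) and 0.659 (Cd180 with Unc93b1). The latter was 0.408 without KO replicate 6. Without that library the range was -0.729 (Tlr4 with Cd180) to 0.597 (Ly86 with Myd88). Ly86 and Cd180, partners in 1 complex, gave 0.102, and -0.408 without it. The genes most like each member over the 10 libraries were Tia1 and Kcnk6 for Tlr1 (0.910 and 0.886), Kalrn and Spsb2 for Tlr4 (0.951 and 0.950), Nmrk1 and Smpd2 for Cd180 (0.943 and 0.933), Cyb5a and Mrps18c for Ly86 (both 0.975), Homer3 and RP23-303F24.3 for Unc93b1 (0.977 and 0.971) and Nans and Bag1 for Myd88 (0.946 and 0.942). Without KO replicate 6, Tia1 was still among the 2 closest to Tlr1, and Kalrn and Spsb2 were those of Tlr4, while both neighbors of the other 4 were different genes. These values are the highest among 14354 genes over few points that share library, depth and composition, and are given as a description.

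**Figure D5:**
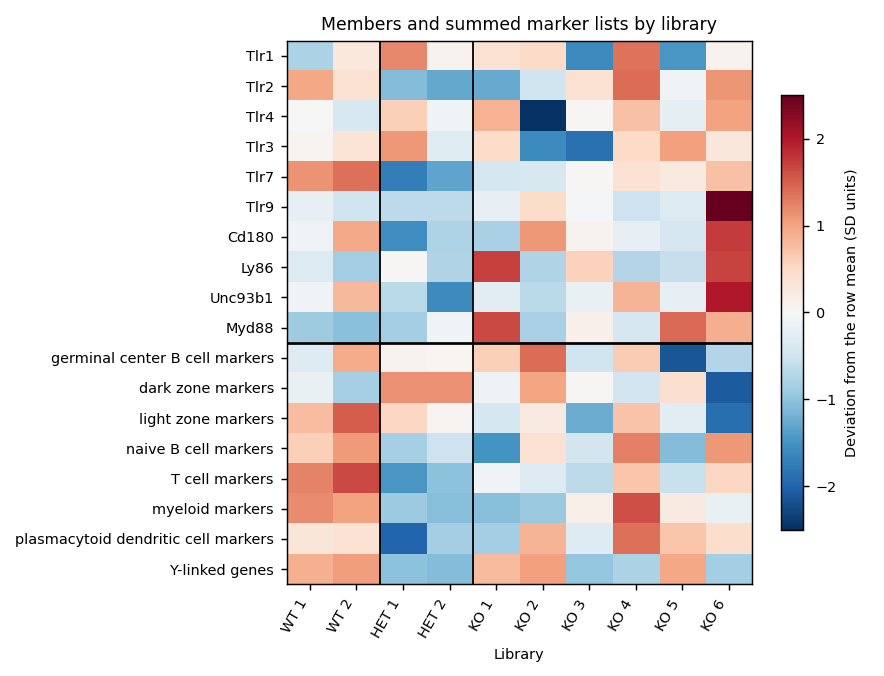
Deviation of each gene, in log2(CPM + 1), and of each summed marker list, in log2(TPM + 1), from its mean over the 10 libraries, in SD units. Tlr9 stands out in KO replicate 6 alone, and Tlr2 and Tlr7 are low in the HET libraries. The myeloid, T cell, naive B cell, plasmacytoid dendritic cell and Y-linked rows are low there too. The Y-linked row is also low in KO replicates 3, 4 and 6, and the myeloid row in KO replicates 1 and 2.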

How the data were processed

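RNA-seq of germinal center B cells from 10 libraries (2 WT, 2 HET and 6 KO) was analysed. SMART-Seq v4 cDNA was sequenced by the authors, who assigned paired reads to Gencode vM17 transcripts with Salmon (version 0.9.1 in the submitters' processing notes). The authors deposited an estimated count for each of 64019 transcripts, not normalized, and an effective length. The deposited TPM values correct for that length and sum to 1000000 in each library, so a gene's TPM depends on the transcript to which its reads were assigned.

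Estimated counts were summed per gene and rounded. CPM was computed on TMM-normalized library sizes. Fits over all genes used edgeR 4.0.16 (quasi-likelihood test, TMM, filterByExpr, Benjamini-Hochberg adjustment, threshold 0.1), with limma 3.58.1 and DESeq2 1.42.0 as alternatives, in R 4.3.3 and Python 3.11.15. WT against KO and WT plus HET against KO were each fitted on their own libraries, and HET against KO and WT against HET on all 10 with a term per genotype. The depth behind a gene is its estimated counts, where a count of 0 allows up to 3 counts, for counting error only.

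The members, the pathway and marker lists and the tests were chosen with earlier results of these data known. Every member was named, together with Zbtb38. Of each pathway list, the gene with the highest mean TPM and genes with an unadjusted p under 0.05 in WT against KO or WT plus HET against KO were named. Genes named for HET against KO and the remark on Tlr11 and Tlr5 were chosen after their values were seen, as were the motifs GAGGAAGT, ATGCAAAT and CACCTG and the ratio of Ly86 to Cd180. Gene positions are from Gencode vM21 of GRCm38 and promoter windows from RefSeq. Replicate libraries differed by more than sampling noise (chi-square per gene from 26.4 to 161.8), so each counted once. The scripts were checked on made counts with known changes. Of genes changed 2-fold, edgeR called 29% for WT against KO and 50.5% for WT plus HET against KO. The share was 38.1% for HET against KO and 18.6% for WT against HET. A gene without a call may therefore still have changed by that much.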

Additional observations from a re-analysis of the deposited data

Results flagged for a closer look

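The highest or lowest KO library was compared with the others for each of the 10 members, in log2(CPM + 1), by its gap to the nearest library as a share of the group's range. Chance sets apart about 1 in 20 groups, and 2 of 10 were set apart here. Tlr9 in KO replicate 6 was at 16.3 CPM, with a gap of 0.698 of the range, above the limit of 0.625 for 6 libraries. Tlr4 in KO replicate 2 was at 9.98 CPM, with a gap of 0.639 on the low side.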

How the results depend on the processing

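The Tlr7 differences between HET and KO and between WT and HET crossed the threshold under some settings. DESeq2 gave -1.35 (adjusted p = 0.00315) and 2.19 (adjusted p = 1.81e-05), a fit of only WT and HET gave 2.20 (edgeR adjusted p = 0.0386), and leaving out KO replicate 6 gave 2.20 for WT over HET (edgeR adjusted p = 0.0871). By limma on log2(TPM + 1) the differences were -0.76 and 1.24 (unadjusted p = 0.147 and 0.0607). Between WT and KO, Tlr7 kept its sign in 19 of 19 alternatives, from 0.21 to 1.26, but its unadjusted p was 0.0579 without WT replicate 1 and 0.129 without WT replicate 2. Of 816 member values under alternatives, 757 kept sign and side of the threshold, 55 changed sign and 4 crossed the threshold. None of the values that changed sign passed the test in either setting.

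Genes called over the whole table, 1 in each comparison, moved as follows. Under DESeq2 there were 10 for WT against KO, 25 for WT plus HET against KO, 505 for HET against KO and 168 for WT against HET. limma on log2(TPM + 1) gave 0 in the first 2, and limma on log2(TPM + 0.1) gave 3, 0, 6 and 5. A threshold of 0.05 gave 0 for WT against KO, and length-scaled counts gave 0 in the first 2. With no filter HET against KO gave 2, and with at least 10 counts in every library it and WT against HET gave 0. The Y-linked covariate gave 0 for WT against KO and 0 for WT against HET. A fit of all 10 libraries gave 2 for WT against KO, and fits of only the 2 groups gave 0 for HET against KO and 523 for WT against HET. Leaving out each library gave 0 to 2 (2 without KO replicate 6), 1 to 2 (2 without WT replicate 1), 0 to 5 (5 without KO replicate 2) and 0 to 16 (16 without KO replicate 6). Where a count was 0 in these fits, the unadjusted p was under 0.05 for 190 to 1425 genes. The cause was not tested.

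Whether replicate numbers mark pairs could not be decided. The correlation of deviations from the group mean was between -0.008 and 0.128 for libraries of the same number. For libraries of different numbers it was between -0.166 and 0.166. In a group of 2 libraries the deviations mirror each other, so these values are not independent. With the number as a replicate block, which rests on the label alone, the calls were 6, 0, 4 and 66. In the replicate block, sign changes were Tlr1 -0.059, Tlr2 0.77, Tlr4 0.33 and Unc93b1 0.006 for WT plus HET over KO, Tlr4 0.26 for WT over KO and Tlr3 0.038 for WT over HET. Tlr2 for WT over KO was 1.44 (unadjusted p = 0.039, adjusted p = 0.621).

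Further sign changes were these. For WT over KO, limma on log2(TPM + 1) and log2(TPM + 0.1) gave 0.086 and 0.089 for Tlr1 and 0.025 and 0.036 for Tlr4. DESeq2's size factors and its test each gave -0.003 for Unc93b1, leaving out immunoglobulin genes gave 0.00, and length-scaled counts gave -0.013 for Cd180. The Y-linked covariate gave -0.10 for Tlr3 and 0.093 for Tlr4. For WT plus HET over KO, the limma fits gave 0.10 and 0.12 for Tlr4, -0.14 and -0.18 for Tlr7 and 0.019 and 0.019 for Unc93b1. Tlr7 was -0.36 with length-scaled counts, -0.14 with the Y-linked covariate and -0.26 in a fit of all 10 libraries. With that covariate Tlr4 was -0.21 for HET over KO and 0.30 for WT over HET, and Ly86 was 0.045 for WT over HET.

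Leaving out each library in turn gave these ranges. For WT over KO, Cd180 lay between -0.12 and 0.17, Tlr1 between -0.20 and 0.067, Tlr3 between -0.13 and 0.41 and Unc93b1 between -0.079 and 0.078. For WT plus HET over KO, Tlr1 lay between -0.03 and 0.13, Tlr3 between -0.057 and 0.60, Tlr4 between -0.22 and 0.03 and Tlr7 between -0.30 and 0.42. For HET over KO, Tlr3 lay between -0.46 and 1.03 and Tlr4 between -0.12 and 0.19. For WT over HET, Ly86 lay between -0.21 and 0.036 and Tlr3 between -0.92 and 0.58. The order of the members was the same by TPM without KO replicate 6, and by CPM 8 of 10 held the same place, with Tlr3 and Tlr9 exchanged.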
